A study of Homo sapiens with 8 samples.

Results

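The mitosis genes described here are 48 protein-coding genes of entry into, progress through and exit from cell division, chosen by name from a list of G2/M and mitosis genes and found in the count table by their Ensembl identifiers. They are 48 of 63140 genes in the table, and all 48 were among the 24057 genes with enough counts to test. They lie on 16 chromosomes, and the rule uses their names, not measured values. The list was nevertheless chosen with earlier results of these data known.

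Cells enter mitosis when cyclin B and the kinase CDK1 form an active complex, which CDC25 phosphatases switch on. Chromosomes then condense, the spindle attaches to them at kinetochores, and the spindle checkpoint delays separation until every kinetochore is attached. The anaphase-promoting complex with CDC20 ends the delay by marking securin and cyclin B for destruction, which frees separase to cut cohesin, and the central spindle and an actin ring then divide the cell. Most of these genes are transcribed mainly in late S, G2 and M phase, under the DREAM and MuvB complexes, B-MYB and FOXM1, so their summed RNA is widely used as a sign of proliferation, which leukaemia cell lines show throughout culture.

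The data were RNA counts from 8 libraries of chromatin isolation by RNA purification (ChIRP), in which biotinylated probes pull RNA out of cross-linked, sonicated lysate. The target of the probes is not given in the sources used here and no input library was used, so each value is an amount of RNA in a pull-down. The cells were labelled MOLM13 or OCI-AML4, both established human acute myeloid leukaemia lines, and all were taken on day 3 after nucleofection with an editor and guide RNA. In AAVS1 KO, cells whose genotype is labelled WT received Cas9 ribonucleoprotein aimed at AAVS1, a site commonly used as an editing control, and in HOTSCRAMBL KO the Cas9 ribonucleoprotein was aimed at the long non-coding RNA HOTSCRAMBL. In AAVS1 CBE, also labelled WT, and HOTSCRAMBL CBE, the same targets were addressed with a cytosine base editor, which turns C into T with no double-strand break. Each of the 4 groups held 2 libraries, 1 labelled with each line, so the replicates of a group carry different line labels. The labels name no repeat cultures, and p-values measure the spread between these libraries only. The edited populations are not described as clones, and editing rates are not analysed here.

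Total counts were 20548300 to 37970163 per library, and single mitosis genes had counts of 8 to 17360. The table held 0 genes named HOTSCRAMBL, so the targeted RNA was not checked. Of 12 myeloid markers, 10 were recovered in all libraries, with SPI1 at 247 to 286 CPM (counts scaled to a fixed library total) and FLT3 at 173 to 276 CPM, while KIT stayed at or below 0.630 CPM and CD68 at or below 1.26 CPM. The T-cell marker CD3E and the haemoglobin genes HBB and HBA2 were at 0 in all 8 libraries. CPM values here are scaled by TMM, a trimmed mean that sets the libraries to a common level, and pairs of values give the library labelled MOLM13 first and the library labelled OCI-AML4 second.

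As a group, the mitosis genes were recovered at lower levels after Cas9 editing of HOTSCRAMBL and at higher levels after base editing of it. The AAVS1 KO libraries summed to 2480 and 2274 CPM over the 48 genes and the HOTSCRAMBL KO libraries to 1664 and 1645 CPM, while the AAVS1 CBE libraries summed to 2575 and 2294 CPM and the HOTSCRAMBL CBE libraries to 3701 and 3561 CPM. The ranges of the edited groups did not overlap those of their controls, nor each other. These are bulk pull-down libraries without an input. The share of cells in mitosis, the amount of mitotic RNA per cell and its recovery in the pull-down cannot be told apart. The median level of a mitosis gene over all libraries was 26.4 CPM, against 19.7 CPM for the 13682 protein-coding genes tested and 4.66 CPM for all tested genes, and 47 of the 48 lay above that last median. Per kilobase of exon, the AAVS1 libraries held most INCENP (35.3 CPM per kilobase), followed by MKI67 (25.5), CCNB1 (23.6) and SMC4 (23.4), and least NUSAP1 (0.489).

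**Figure D1:**
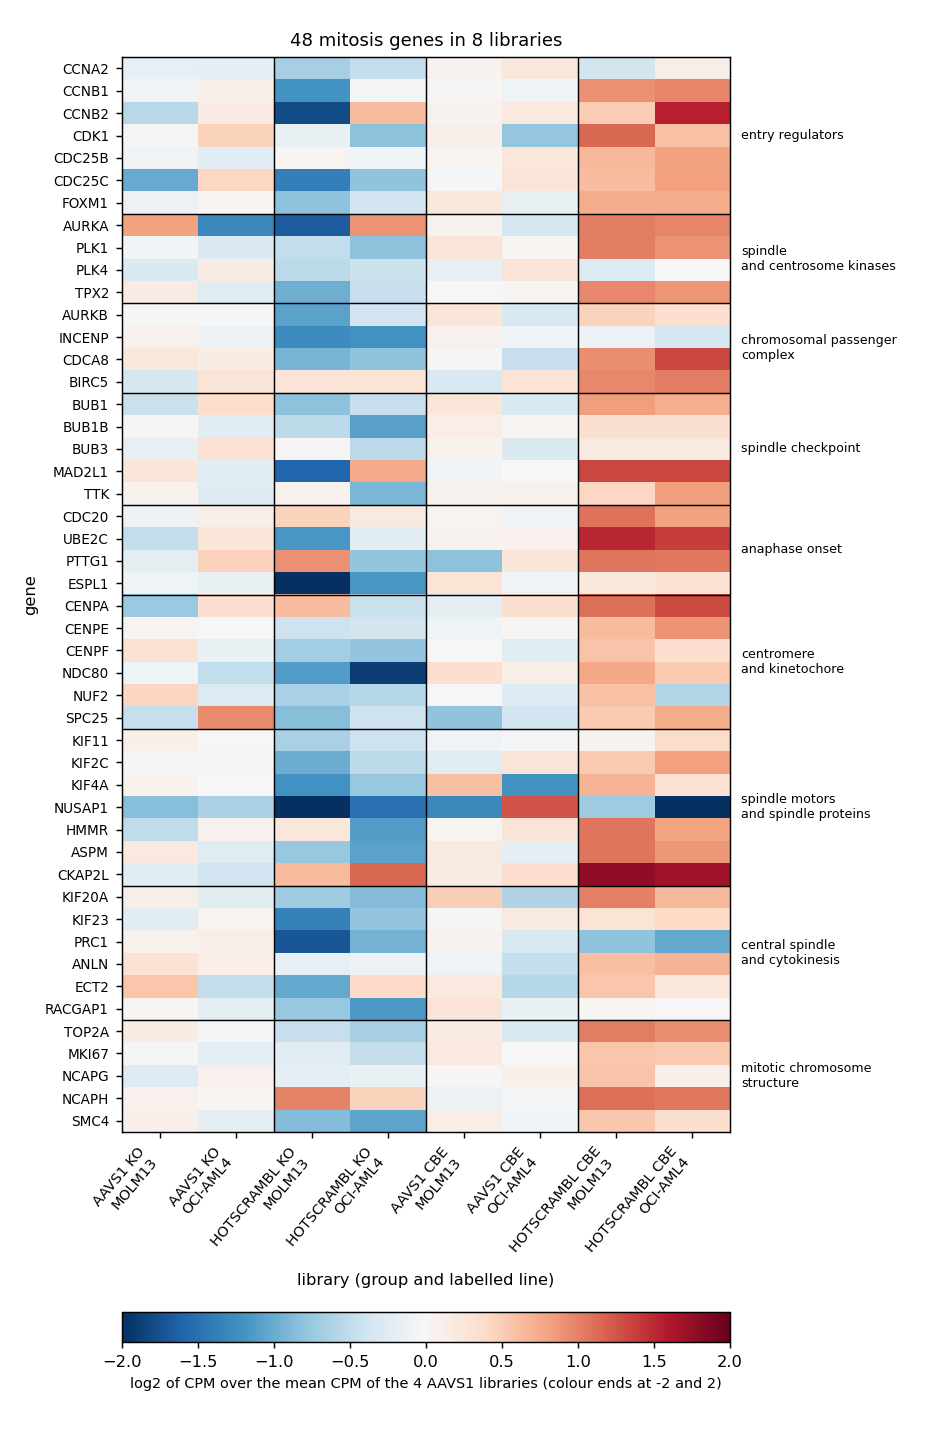
Levels of the 48 mitosis genes (rows, grouped by role) in the 8 libraries (columns, by group and labelled line), as log2 of the CPM over the mean CPM of the 4 AAVS1 libraries; blue is lower, red is higher, and colours end at −2 and 2. The HOTSCRAMBL KO columns are mostly blue and the HOTSCRAMBL CBE columns mostly red, with NUSAP1, PRC1 and CKAP2L among the rows that differ from this.

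The first comparison asked how Cas9 editing of HOTSCRAMBL changed the recovery of these RNAs. Against AAVS1 KO, 38 of 48 log2 fold changes were negative and 10 positive, with a median of −0.56 beside −0.01 over all tested genes. The edgeR quasi-likelihood test called 9 members at an adjusted p under 0.05, where it called 8.76% of all tested genes. Of these, 8 fell (background 4.25%) and 1 rose (background 4.51%). Genes with more counts are called more easily, and among genes at 10 CPM or more the test called 9.86% lower and 8.96% higher, beside 8 and 1 of the 43 members at that level. Without TMM scaling, which moved the median of all tested genes to −0.17, 14 members fell and 0 rose. The members that fell were INCENP, ESPL1, SMC4, ASPM, CENPF, BUB1B, TPX2 and TOP2A, and NCAPH rose. All 9 were among the 15 members at 50 CPM or more. Within the libraries labelled MOLM13 the median was −0.69 and within those labelled OCI-AML4 it was −0.59. In both labelled lines 33 members were lower (30.6% of all tested genes were), 5 were higher in both and 10 went opposite ways. The 2 groups did not overlap, with HOTSCRAMBL KO lower, for 29 members (23.8% of all tested genes), and with it higher for 3 (21.0%).

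The second comparison asked the same of base editing. Against AAVS1 CBE, 42 of 48 log2 fold changes were positive and 6 negative, with a median of 0.68 beside −0.02 over all tested genes. Here 22 members were called by edgeR (background 8.83%): all 22 rose (background 4.56%) and 0 fell (background 4.27%), and DESeq2 also called 0 lower (background 7.69%). Among the 6 negative members none had an unadjusted p under 0.05, beside 4845 of all 24057 tested genes in either direction. At 10 CPM or more 21 of 43 members rose, beside 10.5% of all genes at that level, and 0 fell, beside 9.33%. Without TMM scaling, which moved the median of all tested genes to −0.15, 14 members rose. Those that rose with TMM scaling included the CDK1 and cyclin B1 pair, the kinase PLK1 and the checkpoint proteins BUB1 and MAD2L1. They also included the anaphase activators CDC20 and UBE2C, and the chromosome proteins TOP2A and NCAPH. Of the genes named, CDK1, BUB1, MAD2L1 and CDC20 did not pass without TMM scaling, and MAD2L1 did not pass with DESeq2. In a fit of only the 4 libraries compared, CDK1, PLK1, BUB1, MAD2L1 and CDC20 did not pass. MAD2L1 and CDC20 also did not pass in a model that left out the labelled line. The median was 0.60 in the MOLM13-labelled and 0.76 in the OCI-AML4-labelled libraries. In both labelled lines 39 members were higher (29.2% of all tested genes), 4 were lower in both and 5 went opposite ways. The 2 groups did not overlap, with HOTSCRAMBL CBE higher, for 38 members (22.7% of all tested genes), and with it lower for 2 (23.7%).

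The third comparison tested whether the 2 editors had different effects, as the HOTSCRAMBL effect with KO minus that with CBE. It was negative for 47 of 48 members, NUSAP1 being the exception, with a median of −1.13 on the log2 scale beside −0.01 over all tested genes. The edgeR interaction test called 18 members (background 3.19%), all 18 of them lower with KO (background 1.45%, or 3.37% at 10 CPM or more) and 0 higher (background 1.74%, or 3.72% at 10 CPM or more), with 0 higher also by DESeq2 (background 5.11%). They were CDCA8, UBE2C, ASPM, TOP2A, TPX2, ESPL1, CCNB1, BUB1, CENPF, KIF2C, SMC4, PLK1, FOXM1, ANLN, CENPE, INCENP, BUB1B and MKI67. Fold changes of KO and CBE were negative and positive, in that order, for 32 members (21.5% of all tested genes), positive in both for 10 and negative in both for 6, and no member was higher with KO and lower with CBE. Across the 48 members the fold changes with KO and CBE had a Pearson correlation of 0.50 and a Spearman correlation of 0.44; the points share annotation and gene level, and no library is common to both comparisons.

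**Figure D2:**
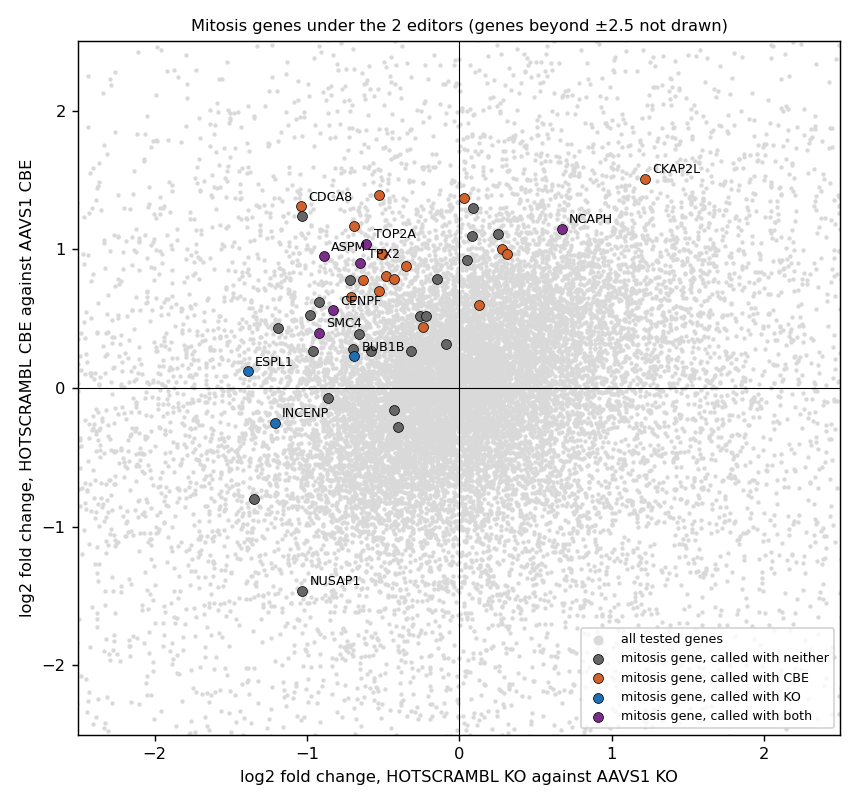
Log2 fold change with KO (horizontal) against that with CBE (vertical) for the 48 mitosis genes (outlined points, coloured by the comparisons in which edgeR called them) over all tested genes (grey; those beyond 2.5 in either direction are not drawn). Of the 48 points, 32 lie in the upper left part and 0 in the lower right.

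By both editors 6 members were called (3.38% of all tested genes were). For 5 of them, CENPF, SMC4, TOP2A, ASPM and TPX2, the direction was opposite, lower with KO and higher with CBE, as for 0.129% of all tested genes (31 genes). NCAPH alone was higher with both (1.65% of all tested genes). Of the 5, CENPF and ASPM alone passed in both directions without the term for labelled line, 4 passed without TMM, where SMC4 lost its CBE call, 1 to 3 passed with a library left out, and 0 in fits of only the 4 libraries compared. CENPF, SMC4, TOP2A, ASPM and NCAPH have a promoter entry in RefSeq (GRCh38.p14), covering 250 bases before to 50 bases after the annotated start, and these are shown because the members that move together are known as a class for 2 promoter elements. One is the cell cycle genes homology region, searched as TTTGAA or TTCGAA, through which DREAM and MuvB bind, and the other is the CCAAT box, bound by NF-Y; both strands were searched, and capitals mark a match (TTCAAA and ATTGG are the reverse strand).
CENPF promoter, chr1:214602945-214603244, plus strand: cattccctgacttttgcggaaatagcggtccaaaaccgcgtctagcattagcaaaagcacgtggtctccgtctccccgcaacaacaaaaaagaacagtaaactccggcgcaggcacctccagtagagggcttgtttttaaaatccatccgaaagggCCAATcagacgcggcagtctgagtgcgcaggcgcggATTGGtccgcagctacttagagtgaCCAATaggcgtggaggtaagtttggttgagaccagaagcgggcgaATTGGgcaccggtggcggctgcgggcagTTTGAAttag
ASPM promoter, chr1:197146620-197146919, minus strand: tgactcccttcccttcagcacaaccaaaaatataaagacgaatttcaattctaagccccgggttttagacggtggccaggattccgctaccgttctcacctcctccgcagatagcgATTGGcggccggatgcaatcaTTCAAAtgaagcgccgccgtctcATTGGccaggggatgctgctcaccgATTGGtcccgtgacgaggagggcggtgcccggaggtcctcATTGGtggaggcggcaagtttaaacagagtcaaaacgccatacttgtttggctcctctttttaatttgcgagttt
TOP2A promoter, chr17:40417847-40418146, minus strand: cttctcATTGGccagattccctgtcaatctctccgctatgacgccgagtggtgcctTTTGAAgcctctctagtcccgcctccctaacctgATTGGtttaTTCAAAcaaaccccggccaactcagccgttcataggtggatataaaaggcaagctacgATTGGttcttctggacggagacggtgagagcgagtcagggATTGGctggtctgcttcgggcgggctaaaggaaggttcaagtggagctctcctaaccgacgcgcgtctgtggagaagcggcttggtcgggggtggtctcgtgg
SMC4 promoter, chr3:160399400-160399699, plus strand: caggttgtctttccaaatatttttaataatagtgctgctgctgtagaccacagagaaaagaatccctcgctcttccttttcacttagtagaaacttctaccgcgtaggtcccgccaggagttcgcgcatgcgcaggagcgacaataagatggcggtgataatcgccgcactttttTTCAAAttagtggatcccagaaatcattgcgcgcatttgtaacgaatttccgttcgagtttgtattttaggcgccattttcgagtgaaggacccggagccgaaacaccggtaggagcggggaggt
NCAPH promoter, chr2:96335516-96335815, plus strand: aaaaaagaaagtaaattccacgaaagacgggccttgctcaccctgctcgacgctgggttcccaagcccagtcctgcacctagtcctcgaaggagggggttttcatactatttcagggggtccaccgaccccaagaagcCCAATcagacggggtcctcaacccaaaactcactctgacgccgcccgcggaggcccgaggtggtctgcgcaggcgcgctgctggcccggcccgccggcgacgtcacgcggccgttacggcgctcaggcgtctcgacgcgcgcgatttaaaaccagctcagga

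Counted from the start, with negative positions before it, TOP2A held its TTTGAA at −194, a TTCAAA at −151 and CCAAT-box matches at −244, −160, −93 and −53. ASPM held a TTCAAA at −113 and CCAAT-box matches at −134, −90, −65 and −25, and CENPF a TTTGAA at 41 with CCAAT-box matches at −94, −58, −33 and 13. The SMC4 window shown held a TTCAAA at −75 and no CCAAT box, and a further SMC4 window in the table, at 160400309 to 160400608 on chromosome 3, held 0 matches to either element. NCAPH held a CCAAT box at −112 and neither TTTGAA nor TTCGAA. In all, 40 members had at least 1 window, 8 of them more than 1. Of the 53 member windows 66.0% held TTTGAA or TTCGAA, against 16.4% of all 35116 windows, and 69.8% held a CCAAT box, against 34.6%. By call, 14 of 18 members with a window that rose with CBE held TTTGAA or TTCGAA. So did 18 of 22 that did not pass. This element was found in 7 of 7 members that fell with KO, beside 80.0% of the 40 members with a window. It was found in 12 of 15 members that differed between the editors and 20 of 25 that did not. A CCAAT box was held by 14 of 18 members that rose with CBE and 18 of 22 that did not pass. For members that fell with KO this was 5 of 7. It was 10 of 15 for those that differed between the editors and 22 of 25 for those that did not. These shares were not compared by a test. A match is a string of letters and was not tested as a binding site.

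In the accounts of single genes, every change given as a rise, a fall or a difference between the editors is on the log2 scale unless a fold is named. The background for the counts by role is that edgeR called 4.25% of all tested genes lower with KO and 4.56% higher with CBE. Of all 24057 tested genes, 4834 had an unadjusted p under 0.05 by edgeR with KO and 4845 with CBE. Among the regulators of entry (CCNA2, CCNB1, CCNB2, CDK1, CDC25B, CDC25C and FOXM1), 4 of 7 rose with CBE, and with KO 5 values were negative and 2 had an unadjusted p under 0.05, which none kept after adjustment. CCNB1, which encodes cyclin B1, the activating partner of CDK1 (ENSG00000134057, chromosome 5, 69167135 to 69178245), had AAVS1 KO levels of 54.8 and 62.0 CPM and HOTSCRAMBL KO levels of 25.0 and 56.0. CCNB1 AAVS1 CBE levels were 58.4 and 54.0 CPM and the HOTSCRAMBL CBE levels were 108 and 113. Its log2 fold change was 0.97 (SE 0.195, adjusted p 0.00130 by edgeR) with CBE, and with KO, where the MOLM13-labelled library alone lay below both controls, it was −0.51 (SE 0.247, adjusted p 0.240 by edgeR). CDK1, the kinase that drives entry, had AAVS1 KO levels of 12.6 and 17.9 CPM and HOTSCRAMBL KO levels of 11.7 and 7.33. CDK1 AAVS1 CBE levels were 13.9 and 7.56 CPM and the HOTSCRAMBL CBE levels were 28.9 and 19.5. Its HOTSCRAMBL CBE libraries lay above both controls and its log2 fold change with CBE was 1.17 (SE 0.346, adjusted p 0.0310 by edgeR), while with KO it was −0.69 (SE 0.452, adjusted p 0.431 by edgeR). CDC25B, a phosphatase that activates CDK1, had AAVS1 KO levels of 78.3 and 70.1 CPM, HOTSCRAMBL KO levels of 85.4 and 77.0, AAVS1 CBE levels of 83.9 and 96.0, and HOTSCRAMBL CBE levels of 130 and 143, which is 0.60 (SE 0.151, adjusted p 0.00961 by edgeR) on the log2 scale with CBE. With KO 1 of its libraries lay above the controls and 1 between them. FOXM1, a transcription factor of late cell-cycle genes, had AAVS1 KO levels of 71.1 and 78.9 CPM and HOTSCRAMBL KO levels of 43.6 and 59.3. FOXM1 AAVS1 CBE levels were 88.7 and 69.2 CPM and the HOTSCRAMBL CBE levels were 129 and 129. Its rise with CBE was 0.70 (SE 0.165, adjusted p 0.00600 by edgeR), and with KO both libraries lay below the controls, at −0.53 (SE 0.205, adjusted p 0.121 by edgeR). CCNA2, the cyclin of S phase and early mitosis, differed in sign from the others with CBE (−0.28, 95% interval −0.85 to 0.29). CCNB2 and CDC25C did not pass either comparison, at 0.05 and −0.92 with KO and 0.92 and 0.62 with CBE, and CCNB2 was spread widely in HOTSCRAMBL KO, at 3.67 and 19.7 CPM.

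**Figure D3:**
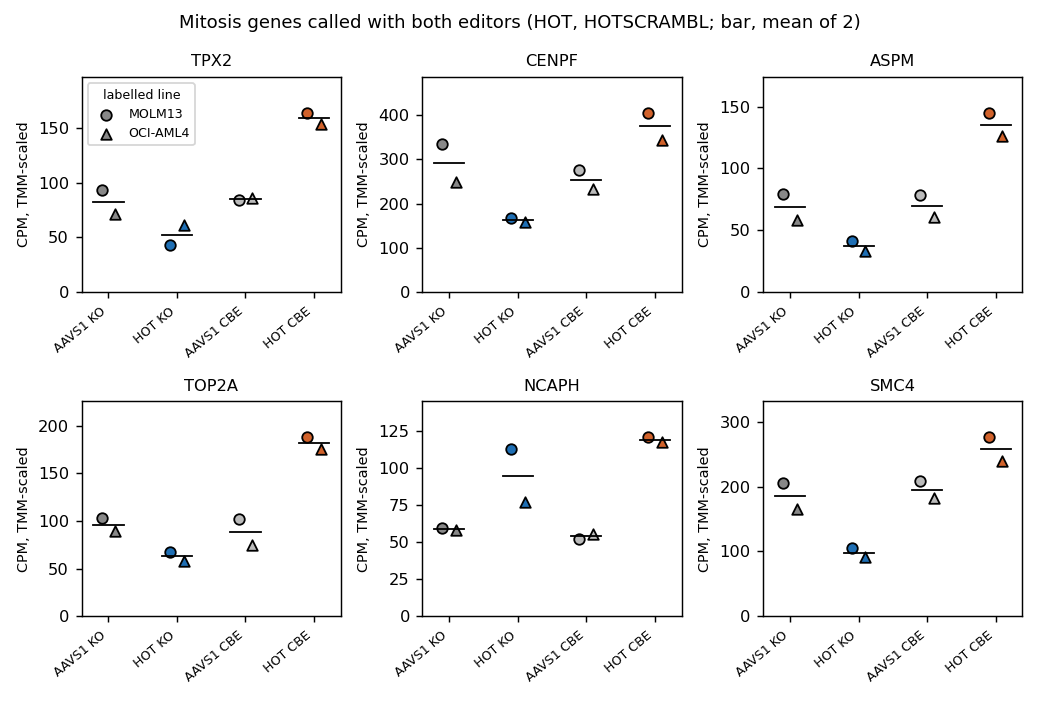
CPM of the 6 mitosis genes called with both editors, by group (horizontal) and library (circle, MOLM13-labelled; triangle, OCI-AML4-labelled; bar, mean of 2), with axes from 0. In 5 panels HOTSCRAMBL KO lies below and HOTSCRAMBL CBE above all AAVS1 libraries; in NCAPH both edited groups lie above them.

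Of the kinases of the spindle and centrosome (AURKA, PLK1, PLK4 and TPX2, the activator of Aurora A), 1 of 4 fell with KO and 2 rose with CBE. TPX2 (ENSG00000088325, chromosome 20, 31739271 to 31801805) had AAVS1 KO levels of 93.8 and 71.1 CPM and HOTSCRAMBL KO levels of 42.8 and 61.2. TPX2 AAVS1 CBE levels were 84.1 and 86.5 CPM and the HOTSCRAMBL CBE levels were 164 and 154. Its log2 fold change was −0.65 (SE 0.203, adjusted p 0.0441 by edgeR) with KO and 0.90 (SE 0.161, adjusted p 3.68e-04 by edgeR) with CBE, so its libraries were ordered KO, control, CBE without overlap. PLK1, a kinase needed for spindle assembly and mitotic exit, had AAVS1 KO levels of 58.4 and 50.0 CPM and HOTSCRAMBL KO levels of 43.2 and 34.7. PLK1 AAVS1 CBE levels were 72.1 and 63.3 CPM and the HOTSCRAMBL CBE levels were 124 and 114. It rose with CBE by 0.81 (SE 0.160, adjusted p 0.00100 by edgeR) and its difference between the editors was −1.29 (SE 0.267, adjusted p 0.00449 by edgeR). AURKA, the Aurora A kinase of the spindle poles, did not pass and was uneven within groups, at 23.3 and 5.48 CPM in AAVS1 KO. PLK4, the kinase of centriole duplication, was −0.43 with KO and −0.16 with CBE and passed neither.

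The chromosomal passenger complex joins the kinase AURKB to the scaffold INCENP and to CDCA8 (borealin) and BIRC5 (survivin), and its members did not move alike. INCENP (ENSG00000149503, chromosome 11, 62123998 to 62153169) had AAVS1 KO levels of 167 and 145 CPM and HOTSCRAMBL KO levels of 65.8 and 68.2. INCENP AAVS1 CBE levels were 168 and 150 CPM and the HOTSCRAMBL CBE levels were 145 and 123. It had the smallest adjusted p of the members with KO, with a log2 fold change of −1.21 (SE 0.157, adjusted p 3.73e-06 by edgeR), 2.31-fold lower, and with CBE it did not pass, at −0.25 (SE 0.134, adjusted p 0.311 by edgeR). CDCA8 had AAVS1 KO levels of 23.6 and 22.6 CPM and HOTSCRAMBL KO levels of 10.7 and 11.7. CDCA8 AAVS1 CBE levels were 20.9 and 14.8 CPM and the HOTSCRAMBL CBE levels were 39.2 and 51.7. The rise with CBE was 1.31 (SE 0.268, adjusted p 0.00159 by edgeR), while its KO value of −1.04 did not pass (edgeR adjusted p 0.0984), and it had the widest difference between the editors among the members, −2.35 (SE 0.465, adjusted p 0.00316 by edgeR). BIRC5 had AAVS1 KO levels of 18.2 and 28.0 CPM and HOTSCRAMBL KO levels of 28.0 and 28.3. BIRC5 AAVS1 CBE levels were 18.8 and 28.3 CPM and the HOTSCRAMBL CBE levels were 45.3 and 47.3. It rose with CBE by 1.00 (SE 0.247, adjusted p 0.00854 by edgeR) and did not pass with KO, at 0.28. AURKB, the catalytic subunit, passed neither, at −0.66 with KO and 0.39 with CBE.

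In the spindle checkpoint, BUB1B fell with KO, and BUB1 and MAD2L1 rose with CBE. BUB1B, which encodes the checkpoint protein BUBR1 (ENSG00000156970, chromosome 15, 40161023 to 40221123), had AAVS1 KO levels of 97.9 and 83.4 CPM and HOTSCRAMBL KO levels of 67.4 and 45.5. BUB1B AAVS1 CBE levels were 106 and 98.8 CPM and the HOTSCRAMBL CBE levels were 120 and 120. Its log2 fold change was −0.69 (SE 0.187, adjusted p 0.0175 by edgeR) with KO and 0.23 (SE 0.153, adjusted p 0.448 by edgeR) with CBE. BUB1, a kinetochore kinase of the checkpoint, had AAVS1 KO levels of 31.0 and 54.1 CPM, HOTSCRAMBL KO levels of 23.9 and 30.8, AAVS1 CBE levels of 49.9 and 34.4, and HOTSCRAMBL CBE levels of 75.7 and 69.8, and with CBE it rose by 0.78 (SE 0.226, adjusted p 0.0285 by edgeR). Its AAVS1 libraries spanned 31.0 to 54.1 CPM, so both HOTSCRAMBL KO libraries lay below that range, the OCI-AML4-labelled one only just. MAD2L1, the inhibitor of CDC20, had AAVS1 KO levels of 7.92 and 5.76 CPM, HOTSCRAMBL KO levels of 2.24 and 11.3, AAVS1 CBE levels of 6.45 and 6.64, and HOTSCRAMBL CBE levels of 16.9 and 16.9, a log2 fold change of 1.37 (SE 0.433, adjusted p 0.0457 by edgeR) with CBE. Both of its HOTSCRAMBL CBE libraries lay above all others, and HOTSCRAMBL KO was split on either side of its control. BUB3 and TTK passed neither comparison, with log2 fold changes of −0.32 and −0.26 with KO and 0.27 and 0.52 with CBE.

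Of the genes of anaphase onset, the protease fell with KO and the activators of destruction rose with CBE. ESPL1, which encodes separase (ENSG00000135476, chromosome 12, 53268299 to 53293638), had AAVS1 KO levels of 64.4 and 61.8 CPM and HOTSCRAMBL KO levels of 16.8 and 30.6. ESPL1 AAVS1 CBE levels were 82.7 and 65.5 CPM and the HOTSCRAMBL CBE levels were 79.0 and 83.7. This was the largest fall with KO among the members, −1.39 (SE 0.261, adjusted p 6.00e-04 by edgeR), or 2.62-fold, and with CBE it was 0.12 (SE 0.187, adjusted p 0.773 by edgeR), where the groups overlapped. UBE2C, the ubiquitin-conjugating enzyme of the anaphase-promoting complex, had AAVS1 KO levels of 10.7 and 17.8 CPM and HOTSCRAMBL KO levels of 6.68 and 12.8. UBE2C AAVS1 CBE levels were 15.8 and 15.9 CPM and the HOTSCRAMBL CBE levels were 42.9 and 39.3. With CBE it rose by 1.39 (SE 0.283, adjusted p 0.00146 by edgeR), 2.62-fold, and differed between the editors by −1.92 (SE 0.525, adjusted p 0.0412 by edgeR). CDC20, the activator of that complex, had AAVS1 KO levels of 12.2 and 14.2 CPM and HOTSCRAMBL KO levels of 17.9 and 14.8. CDC20 AAVS1 CBE levels were 13.6 and 12.5 CPM and the HOTSCRAMBL CBE levels were 27.9 and 23.0. Its rise with CBE was 0.97 (SE 0.309, adjusted p 0.0478 by edgeR), the weakest of the 22 calls by adjusted p, and all 4 HOTSCRAMBL libraries lay above the controls. PTTG1, which encodes securin, had low counts and passed neither, at 0.09 and 1.30.

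At the centromere and kinetochore, CENPF fell with KO and rose with CBE, and CENPE rose with CBE. CENPF, a large protein of the outer kinetochore and nuclear envelope (ENSG00000117724, chromosome 1, 214603185 to 214664574), had AAVS1 KO levels of 335 and 248 CPM and HOTSCRAMBL KO levels of 168 and 158. CENPF AAVS1 CBE levels were 275 and 232 CPM and the HOTSCRAMBL CBE levels were 405 and 344. Its log2 fold change was −0.83 (SE 0.122, adjusted p 2.77e-05 by edgeR) with KO and 0.56 (SE 0.111, adjusted p 0.00109 by edgeR) with CBE, and the difference of −1.39 (SE 0.165, adjusted p 4.59e-06 by edgeR) had the smallest adjusted p of the members. CENPE, a kinesin that carries chromosomes to the spindle equator, had AAVS1 KO levels of 54.4 and 52.2 CPM and HOTSCRAMBL KO levels of 39.1 and 40.3. CENPE AAVS1 CBE levels were 49.4 and 53.0 CPM and the HOTSCRAMBL CBE levels were 81.0 and 97.8. It rose with CBE by 0.79 (SE 0.179, adjusted p 0.00376 by edgeR), and with KO both libraries lay below the controls without passing, at −0.43 (SE 0.222, adjusted p 0.285 by edgeR). CENPA, the centromeric histone, and NDC80, NUF2 and SPC25, of the complex that binds microtubules, passed neither; their log2 fold changes with KO were 0.25, −1.19, −0.70 and −1.03, and with CBE 1.11, 0.43, 0.28 and 1.24.

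Among spindle motors and spindle proteins, ASPM was called by both editors and KIF2C and CKAP2L by CBE. ASPM, which focuses the spindle poles (ENSG00000066279, chromosome 1, 197084121 to 197146694), had AAVS1 KO levels of 79.3 and 58.4 CPM and HOTSCRAMBL KO levels of 41.2 and 33.2. ASPM AAVS1 CBE levels were 78.8 and 60.9 CPM and the HOTSCRAMBL CBE levels were 145 and 126. It fell with KO by 0.89 (SE 0.207, adjusted p 0.00541 by edgeR) and rose with CBE by 0.95 (SE 0.156, adjusted p 1.12e-04 by edgeR), 1.85-fold down and 1.94-fold up. CKAP2L, a spindle protein also called radmis (ENSG00000169607, chromosome 2, 112736349 to 112764664), had AAVS1 KO levels of 7.37 and 6.64 CPM and HOTSCRAMBL KO levels of 13.4 and 19.0. CKAP2L AAVS1 CBE levels were 9.54 and 10.9 CPM and the HOTSCRAMBL CBE levels were 29.5 and 28.0. It had the largest rise with CBE, 1.51 (SE 0.321, adjusted p 0.00217 by edgeR), and the largest positive value with KO, 1.22 (SE 0.445, adjusted p 0.0962 by edgeR), which did not pass although both libraries lay above the controls. KIF2C, a kinesin that shortens microtubules, had AAVS1 KO levels of 44.9 and 44.8 CPM, HOTSCRAMBL KO levels of 23.0 and 32.0, AAVS1 CBE levels of 38.8 and 54.9, and HOTSCRAMBL CBE levels of 65.9 and 81.3, with 0.66 (SE 0.193, adjusted p 0.0289 by edgeR) for CBE and −0.71 (SE 0.255, adjusted p 0.0901 by edgeR) for KO. KIF11, KIF4A, HMMR and NUSAP1 passed neither. NUSAP1 was the least recovered member, at 0.408 to 4.24 CPM, and 86.8% of its exon bases are shared with other annotated genes, whose reads were then not counted.

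In the central spindle and cytokinesis group 1 of 6 members rose with CBE, and with KO all 6 values were negative. Of these, 3 had an unadjusted p under 0.05 (4834 of all 24057 tested genes did) that did not pass after adjustment. ANLN, which encodes anillin, a scaffold of the contractile ring, had AAVS1 KO levels of 44.8 and 40.4 CPM and HOTSCRAMBL KO levels of 32.9 and 33.8. ANLN AAVS1 CBE levels were 35.0 and 26.5 CPM and the HOTSCRAMBL CBE levels were 55.9 and 58.9. With CBE its rise was 0.88 (SE 0.217, adjusted p 0.00842 by edgeR), and its difference between the editors was −1.23 (SE 0.331, adjusted p 0.0369 by edgeR). RACGAP1 and KIF23, the 2 parts of centralspindlin, and KIF20A had KO values of −0.86, −0.96 and −0.72, with CBE values of −0.07, 0.27 and 0.78. ECT2, the exchange factor for RhoA, was −0.22 and 0.52. PRC1, which bundles the central spindle, was negative in both, at −1.35 and −0.80, and 61.9% of its exon bases are shared with other annotated genes.

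Of 5 genes of mitotic chromosome structure, 2 fell and 1 rose with KO, and 4 rose with CBE. TOP2A, the topoisomerase that untangles sister chromatids (ENSG00000131747, chromosome 17, 40388525 to 40417896), had AAVS1 KO levels of 103 and 89.8 CPM and HOTSCRAMBL KO levels of 67.5 and 58.6. TOP2A AAVS1 CBE levels were 102 and 75.2 CPM and the HOTSCRAMBL CBE levels were 188 and 176. It fell with KO by 0.61 (SE 0.174, adjusted p 0.0248 by edgeR) and rose with CBE by 1.04 (SE 0.143, adjusted p 1.20e-05 by edgeR), the smallest adjusted p of the 22 rises. SMC4, the condensin ATPase subunit (ENSG00000113810, chromosome 3, 160399274 to 160434954), had AAVS1 KO levels of 205 and 166 CPM and HOTSCRAMBL KO levels of 105 and 91.3. SMC4 AAVS1 CBE levels were 208 and 183 CPM and the HOTSCRAMBL CBE levels were 276 and 239. It fell with KO by 0.92 (SE 0.137, adjusted p 2.87e-05 by edgeR) and rose with CBE by 0.40 (SE 0.117, adjusted p 0.0296 by edgeR), with no overlap between groups. NCAPH, the kleisin subunit of the same condensin complex (ENSG00000121152, chromosome 2, 96335766 to 96377091), had AAVS1 KO levels of 60.0 and 58.4 CPM, HOTSCRAMBL KO levels of 113 and 77.1, AAVS1 CBE levels of 52.2 and 55.7, and HOTSCRAMBL CBE levels of 121 and 118, so its direction with KO was opposite to that of SMC4. It rose by 0.67 (SE 0.191, adjusted p 0.0248 by edgeR) with KO and by 1.15 (SE 0.174, adjusted p 4.25e-05 by edgeR) with CBE, a difference of −0.48 between the editors that did not pass. MKI67, the source of the Ki-67 antigen, had AAVS1 KO levels of 317 and 289 CPM, HOTSCRAMBL KO levels of 282 and 234, AAVS1 CBE levels of 373 and 330, and HOTSCRAMBL CBE levels of 481 and 471; it rose with CBE by 0.44 (SE 0.103, adjusted p 0.00549 by edgeR) and with KO was −0.24 (SE 0.111, adjusted p 0.230 by edgeR). NCAPG, another condensin subunit, passed neither, at −0.09 and 0.32.

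**Figure D4:**
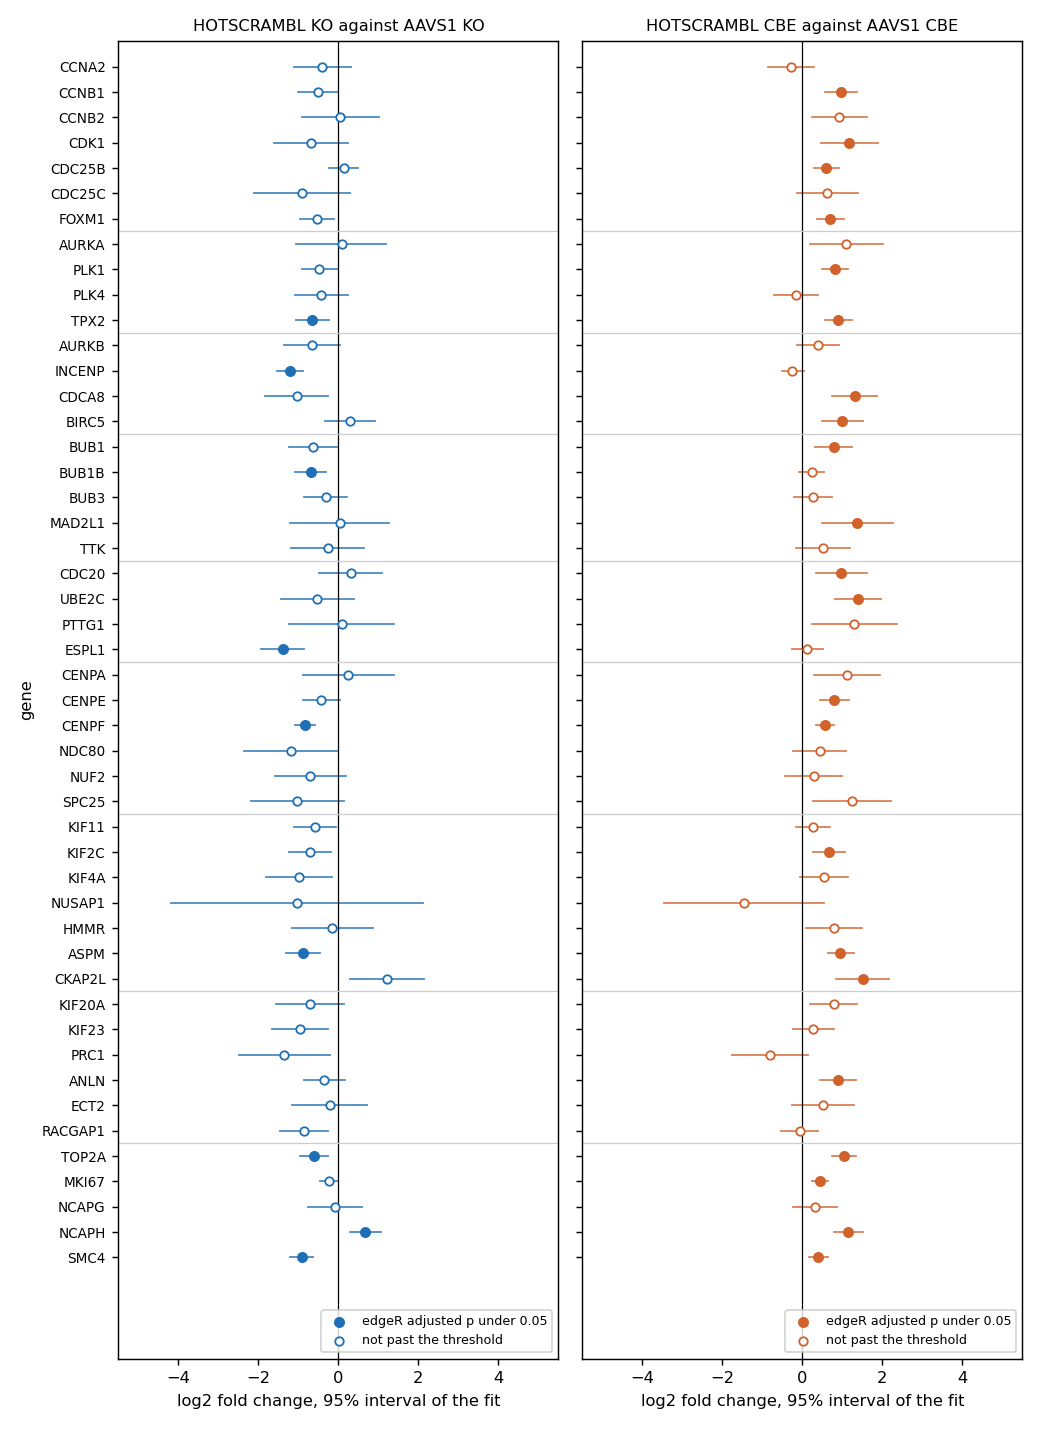
Log2 fold change of each mitosis gene with its 95% interval from the edgeR fit, by role (grey lines part the roles), with KO on the left and CBE on the right; filled points passed the adjusted threshold of 0.05. On the left 8 filled points lie below 0 and 1 above it, and on the right all 22 lie above 0.

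Among the called members, the calls depended on the libraries more than the directions did. With KO, INCENP, CENPF and SMC4 passed in all 16 alternative settings, ESPL1 in 14, ASPM and BUB1B in 12, TOP2A in 10, NCAPH in 9 and TPX2 in 6. Of the 8 falls with KO, 4 still passed without the MOLM13-labelled library of AAVS1 KO or of HOTSCRAMBL KO, and 5 without the OCI-AML4-labelled library of either. With CBE, ASPM, NCAPH and TOP2A passed in all 16 settings TPX2 in 14, CENPF in 13, SMC4 in 7 and CDC20 in 2. Of the 22 rises, 7 and 6 still passed without the MOLM13- and OCI-AML4-labelled libraries of AAVS1 CBE and 6 and 10 without those of HOTSCRAMBL CBE. For the difference between the editors, ASPM, CENPF, SMC4 and TOP2A passed in all 15 settings, and with a single library left out 5 to 10 of the 18 calls still passed. None of these calls changed sign in any setting. With a model that left out the labelled line, TOP2A and TPX2 lost their KO call, at 6 falls and 1 rise with KO and 18 rises with CBE.

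Controls and lines gave the background for these values. Between AAVS1 KO and AAVS1 CBE edgeR called 0 of 48 members (background 0%), with 0 members at an unadjusted p under 0.05 (background 3.82%), 0 members by DESeq2 (background 0.145%) and a median of −0.04. Between the MOLM13- and OCI-AML4-labelled libraries edgeR also called 0 members (background 0.495%, with 0.237% higher and 0.258% lower), 8 had an unadjusted p under 0.05 (background 9.19%), and DESeq2 called 3 higher and 1 lower (background 3.23% in either direction). The smallest edgeR adjusted p was 0.209, for CCNB2. Over all 24057 tested genes edgeR called 119 between the labelled lines, and whether each library holds the line on its label was not tested. As the members' 95% intervals are wide, with a median SE of 0.332 with KO and 0.261 with CBE, members that did not pass are not shown to be without a difference.

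The other mitosis genes, 121 in all and in 6 lists with no gene in common with the 48, gave smaller medians of the same signs. These lists were also chosen with earlier results of these data known, and come from the same libraries. With KO 21 fell (background 4.25%) and 2 rose (background 4.51%), with a median log2 fold change of −0.36. With CBE 17 rose (background 4.56%) and 3 fell (background 4.27%), with a median of 0.29. Between the editors 18 differed (background 3.19%), all lower with KO, with a median of −0.67. The falls with KO were led by KIFC1, a minus-end spindle motor (−1.18, SE 0.112, adjusted p 2.16e-08 by edgeR), PCNT, a centrosome scaffold (−0.72, SE 0.114, adjusted p 7.12e-05 by edgeR), and NUMA1, which anchors the spindle poles (−0.71, SE 0.113, adjusted p 7.67e-05 by edgeR). The 2 that rose with KO were UBE2S, which extends ubiquitin chains for the anaphase-promoting complex, at 1.12 (SE 0.170, adjusted p 4.02e-05 by edgeR), and the CDK subunit CKS2 at 1.59 (SE 0.429, adjusted p 0.0174 by edgeR). With CBE, MYBL2, which encodes B-MYB, rose by 0.68 (SE 0.0935, adjusted p 1.06e-05 by edgeR), the kinetochore gene CENPK by 0.73 (SE 0.105, adjusted p 1.96e-05 by edgeR) and the spindle gene CKAP2 by 1.08 (SE 0.167, adjusted p 5.47e-05 by edgeR). The 3 that fell with CBE were the kinetochore gene CENPT (−0.70, SE 0.152, adjusted p 0.00282 by edgeR), NUMA1 (−0.36, SE 0.107, adjusted p 0.0337 by edgeR) and the microtubule-binding CLASP2 (−0.39, SE 0.119, adjusted p 0.0354 by edgeR). By list, of 32 spindle, centrosome and cytokinesis genes 9 fell with KO, and 7 rose and 2 fell with CBE. Of 31 kinetochore and centromere genes 4 fell with KO, and 3 rose and 1 fell with CBE. Of 16 genes of cohesin, condensin and separase control 3 fell with KO and 4 rose with CBE. Of 15 mitotic kinases, phosphatases and adaptors 2 fell and 1 rose with KO, and 2 rose with CBE. Of 17 genes of the anaphase-promoting complex 3 fell and 1 rose with KO, and edgeR called 0 with CBE or between the editors. In those 2 comparisons 3 and 4 had an unadjusted p under 0.05, beside 4845 and 3399 of all 24057 tested genes. Of 10 MuvB and DREAM regulators edgeR called 0 with KO, and 1 rose with CBE. With KO 1 of them had an unadjusted p under 0.05, beside 4834 of all 24057 tested genes. For comparison, of 40 DNA replication genes 7 fell and 1 rose with KO (median −0.29), and 4 rose and 4 fell with CBE (median 0.02).

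**Figure D5:**
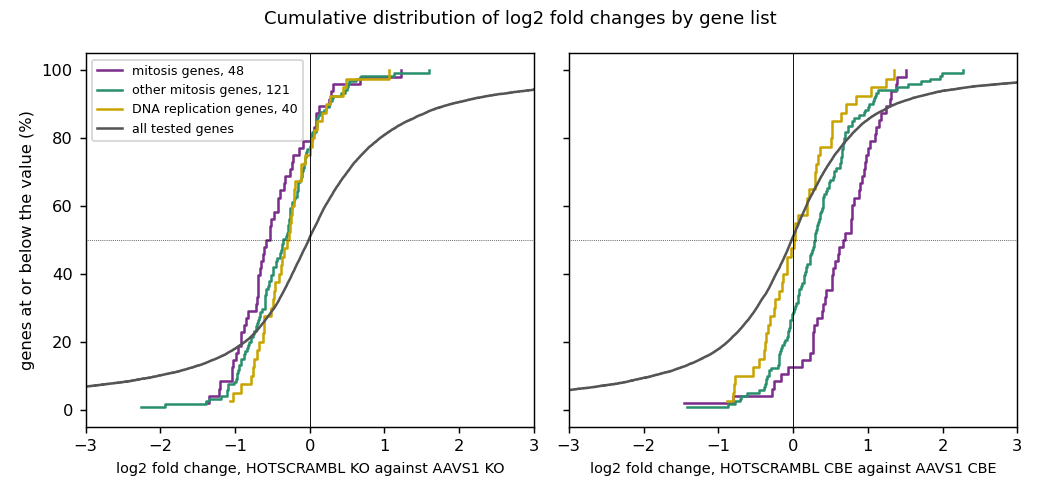
Cumulative share of genes (vertical, percent) at or below each log2 fold change (horizontal, from −3 to 3) with KO on the left and CBE on the right, for the 48 mitosis genes, 121 other mitosis genes, 40 DNA replication genes and all tested genes. The curve of the 48 genes crosses 50% at −0.56 with KO and at 0.68 with CBE, and that of DNA replication genes at −0.29 and 0.02.

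Other RNA moved with the groups, and its part in these results was not tested. Cytosolic ribosomal protein genes took 1.31% to 1.58% of counts in the AAVS1 libraries, 3.97% and 4.45% in HOTSCRAMBL KO, and 3.18% and 3.36% in HOTSCRAMBL CBE, and mitochondrially encoded genes took 6.77% to 7.23%, 10.7% and 11.9%, and 11.6% and 10.2%. Both classes were higher with both editors, whereas the medians of the 48 mitosis genes were −0.56 with KO and 0.68 with CBE on the log2 scale. The summed level of the 12 myeloid markers was 1886 to 2026 CPM in the AAVS1 libraries, 2288 and 2469 CPM in HOTSCRAMBL KO, and 1777 and 1845 CPM in HOTSCRAMBL CBE. Single markers did not move alike. Of the 11 tested, 4 log2 fold changes were positive and 7 negative with KO (median −0.09), and 6 positive and 5 negative with CBE (median 0.04). The 5 epithelial and stromal markers summed to 2.86 to 6.00 CPM in the AAVS1 libraries, 0.306 and 0.134 CPM in HOTSCRAMBL KO and 4.93 and 2.60 CPM in HOTSCRAMBL CBE. Counting used no strand, so reads antisense to a member count towards it; exons of 19 members overlap those of another gene, and 13 members have a pseudogene of their name.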

How the data were processed

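ChIRP pull-down RNA of 8 libraries (2 in each of 4 groups, taken from the sample titles) was analysed from 1 deposited table of counts per gene. Per the file headers, the authors made these whole-number counts with featureCounts 2.0.6 and the Ensembl 112 annotation, without a strand option, leaving out reads at several positions or over several genes. Both reads of a pair were counted, since 71.8% to 74.9% of values from 1 to 20 were even. GRCh38 is named in the submitters' processing notes; the aligner is not given in the sources used here. Records of 2 genes broken over lines were rejoined, 62541 identifiers (99.05%) had a symbol, and 0 columns belonged to other samples.

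The quasi-likelihood F-test of edgeR 4.0.16 in R 4.3.3 (robust, TMM, filterByExpr with a minimum count of 10, 24057 genes) was fitted to all 8 libraries with terms for group and labelled line, leaving 3 residual degrees of freedom. P-values were adjusted by Benjamini-Hochberg over all tested genes, at a threshold of 0.05; log2 values, SEs and 95% intervals come from that fit. The labelled line is the replicate number, as the sample titles state, and was used to pair the libraries. Deviations of libraries with the same line label from their group means correlated with r from 0.00851 to 0.0245 across all tested genes. Across genes above the median level, where 47 of the 48 members lie, r was 0.0411 to 0.117. The pairing thus rests on the titles, as the libraries of a label shared little deviation. The script was run on simulated counts for the KO comparison only, with changed genes drawn from above the median level. That run did not cover the CBE comparison or the difference between the editors. Members and lists were chosen with earlier results of these data known. All 48 members are accounted for; those past the threshold with KO or CBE are given by library, and of the other mitosis genes the 3 with the smallest p in each direction are named. Alternatives covered scaling, filtering, DESeq2 1.42.0, the line term, fewer libraries, halved counts and each library left out; an edgeR fit with trended dispersion was chosen after seeing the data.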

Additional observations from a re-analysis of the deposited data

Results flagged for a closer look

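The effect of targeting HOTSCRAMBL differed between Cas9 and the base editor, by the edgeR interaction test at an adjusted p under 0.05, for 18 mitosis genes and for 4 of the other mitosis genes named above, always lower with Cas9. On the log2 scale the difference, Cas9 effect minus base editor effect, was −2.35 for CDCA8, −1.92 for UBE2C, −1.84 for ASPM, −1.65 for TOP2A, −1.55 for TPX2 and −1.51 for ESPL1. It was −1.48 for CCNB1, −1.40 for BUB1, −1.39 for CENPF, −1.37 for KIF2C, −1.32 for SMC4 and −1.29 for PLK1. FOXM1 and ANLN each differed by −1.23, CENPE by −1.22, INCENP by −0.96, BUB1B by −0.92 and MKI67 by −0.67. Among the other mitosis genes the difference was −1.23 for CKAP2, −0.99 for KIFC1, −0.90 for CENPK and −0.79 for MYBL2.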

How the results depend on the processing

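With KO, the 2108 genes called became 661 in a fit of only the 4 libraries compared and 4231 with DESeq2, and 701 to 1679 when 1 library was left out. Of the members, 1 higher and 8 lower became 0 and 14 without TMM, 2 and 15 with trended dispersion, 0 and 3 with only 4 libraries, 2 and 18 with DESeq2, and 0 to 1 and 4 to 7 with a library left out; the median of −0.56 became −0.72 without TMM and −0.82 to −0.53 with a library left out. With CBE, 2124 genes became 528, 3439 with DESeq2 and 579 to 1935, and the 22 members became 14 without TMM, 6 with 4 libraries and 6 to 19; the median of 0.68 became 0.54 without TMM and 0.54 to 0.79. Without TMM the median of all genes was −0.17 with KO and −0.15 with CBE, and of the calls 840 were higher and 1695 lower with KO, and 782 and 1616 with CBE. Over all tested genes with KO, the 1085 higher and 1023 lower calls became 1138 and 1382 with trended dispersion. With DESeq2 they became 2046 and 2185, so calls grew beyond the members too. For the difference, 767 genes became 503 with no replicate block, 2291 with DESeq2 and 234 to 370 with a library left out, the members called, 18, 5 to 11 in all, newly called ones included, and the median of −1.13 was −1.10 with DESeq2 size factors or trended dispersion, −1.15 without TMM, −1.07 with DESeq2 and −1.34 to −1.01. Between controls DESeq2 called 35 genes, and the median of −0.04 was −0.15 to −0.01 with a library left out. Between labelled lines, 119 genes became 193 with trended dispersion, 778 with DESeq2 and 26 to 58, and members called 3 higher and 1 lower with DESeq2. The cause was not tested, beyond fewer libraries leaving fewer degrees of freedom. A library left out leaves its group with 1 library, assumed to vary like the others. Calls were rarer among members of low level: those called with CBE had a median of 62.4 CPM and the others 18.2 CPM.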
